A study of Mus musculus with 4 samples.

Results

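The genes described here are *Nox4*, *Ucp2*, *Nnt* and 7 further genes that make or remove reactive oxygen species, most of them in mitochondria. They were taken by gene symbol from a list of 10 symbols, which matched 11 of the 55335 gene IDs in the deposited tables, since *Nnt* has 2 gene IDs. The list was drawn up with earlier results of the same libraries known, and its genes count as chosen by their counts in mutant against control oocytes, the contrast described below. Their values are therefore a description, and no p-value is given for them.

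The data were RNA sequencing libraries of mouse oocytes amplified with Smart-Seq2, a method that copies full-length cDNA from very little RNA. There were 2 libraries labelled mutant and 2 labelled control, all 4 given as strain C57BL/6, as oocytes and, in the sample descriptions, as MII, with the controls marked WT there. The series concerns mice with a point mutation at an alternative splice site of exon 3 of *Ezh2*, the catalytic subunit gene of Polycomb repressive complex 2, in forms named Ezh2Long and Ezh2Short. Which form the mutant oocytes carried is not stated, and the labels give neither the C57BL/6 substrain, nor the number of oocytes per library, nor whether libraries came from separate animals. The spread between libraries of a group may therefore be technical.

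Mitochondria leak superoxide from the respiratory chain, and dismutases turn it into hydrogen peroxide, which catalase, glutathione peroxidases and peroxiredoxins then remove. The peroxiredoxin and thioredoxin of the mitochondrial matrix draw their reducing power from NADPH, which the transhydrogenase encoded by *Nnt* makes from NADH at the expense of the proton gradient. NADPH oxidases work the other way, spending NADPH to make superoxide or peroxide on purpose, and uncoupling proteins are inner membrane carriers of the SLC25 family. An oocyte carries a large store of mitochondria, from which those of the embryo descend.

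The libraries held 26575938 and 26587327 counts in mutants 1 and 2 and 26617816 and 25090032 counts in controls 1 and 2. *Ezh2* was read at 176 and 223 CPM (counts scaled to a common library size, defined with the processing) in the mutant libraries and at 313 and 239 CPM in the control libraries, and did not pass the threshold (log2 fold change -0.47, SE 0.195, edgeR quasi-likelihood test, adjusted p = 0.219). Its level per gene does not check the genotype labels. All 14 genes of a list of oocyte markers were read in every library, with *Gdf9* at 2807 and 3562 CPM in mutants and 4144 and 3648 CPM in controls and *Bmp15* at 2929 and 3760 CPM in mutants and 3505 and 2810 CPM in controls. Markers of other cells differed between libraries. The summed level of 18 cumulus and granulosa markers was 394 and 48.6 CPM in mutants 1 and 2 and 76.4 and 56.1 CPM in controls 1 and 2. *Cyp19a1* and *Nr5a2* held most of this sum in mutant 2 and in both controls. *Cyp19a1* was at 16.4 and 23.6 CPM in mutants and 34.2 and 42.5 CPM in controls. Of the 18 markers 16 were higher in mutant 1 than in mutant 2, and 2 were higher in mutant 2. Mutant 2 had reads for 14 of them, and controls 1 and 2 for 14 and 9. The summed level of 18 leukocyte markers was 73.7 and 315 CPM in mutants 1 and 2 and 54.3 and 61.4 CPM in controls 1 and 2. Most of the sum in each control came from *Lcp1*, *Il2rb*, *Laptm5* and *Csf1r*, which were read in every library. The sum thus says little about the other markers. Of the 18, 13 and 18 were read in mutants 1 and 2, and 9 and 6 in controls 1 and 2. Of the 18 leukocyte markers 13 were higher in mutant 2 than in mutant 1 and 5 were higher in mutant 1. For 8 of the 18 both mutants were above both controls. This held for 5 of the 9 that were tested, against 28.8% of all genes tested. The 2 that passed the threshold were higher in mutant 1 than in mutant 2. They were *Lyz2*, the lysozyme gene of myeloid cells, at 8.03 and 3.83 CPM in mutants and 0.362 and 0.0397 CPM in controls, and *Cd74*, the invariant chain gene of antigen-presenting cells, at 2.70 and 1.01 CPM in mutants and 0 in both controls (adjusted p = 0.0437 and 0.0428, edgeR quasi-likelihood test). *Lcp1* was at 33.6 and 71.3 CPM in mutants and 32.4 and 31.5 CPM in controls, and *Coro1a* was at 0 and 64.3 CPM in mutants and 0 in both controls. Among the defining markers, the leukocyte antigen gene *Ptprc* had 3 and 1150 counts in mutants 1 and 2 and 0 in both controls, and the gap junction gene *Gja1* of cumulus cells had 2796 and 212 counts in mutants 1 and 2 and 271 and 0 counts in controls 1 and 2. In bulk RNA a change in the number of cells of a type and a change in RNA per cell cannot be told apart.

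Of the 11 gene IDs, 9 passed the filter on low counts, and both IDs of *Nnt* did not. Over all 15493 genes tested, 3.75% passed the threshold in either direction and 1.77% were higher and 1.98% lower in mutants (edgeR quasi-likelihood test, adjusted p under 0.05). Among the 9 tested IDs, *Nox4* and *Ucp2* were called higher in mutants, none was called lower, and 7 were not called. Nothing is read from these counts, since the same contrast chose the genes. The groups did not overlap, with both mutants higher, for 6 of the 9 tested IDs and for both untested *Nnt* IDs, against 28.8% of all genes tested, and *Sod2* was lower in both mutants, against 25.7% of all genes tested. *Gpx4* and *Txn2* overlapped. The number called higher was 0 without control 1 and 1 without control 2, with *Nox4* the one that passed, 4 without mutant 1, and 3 without mutant 2. Without mutant 1 *Txn2* was also called, as lower.

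**Figure D1:**
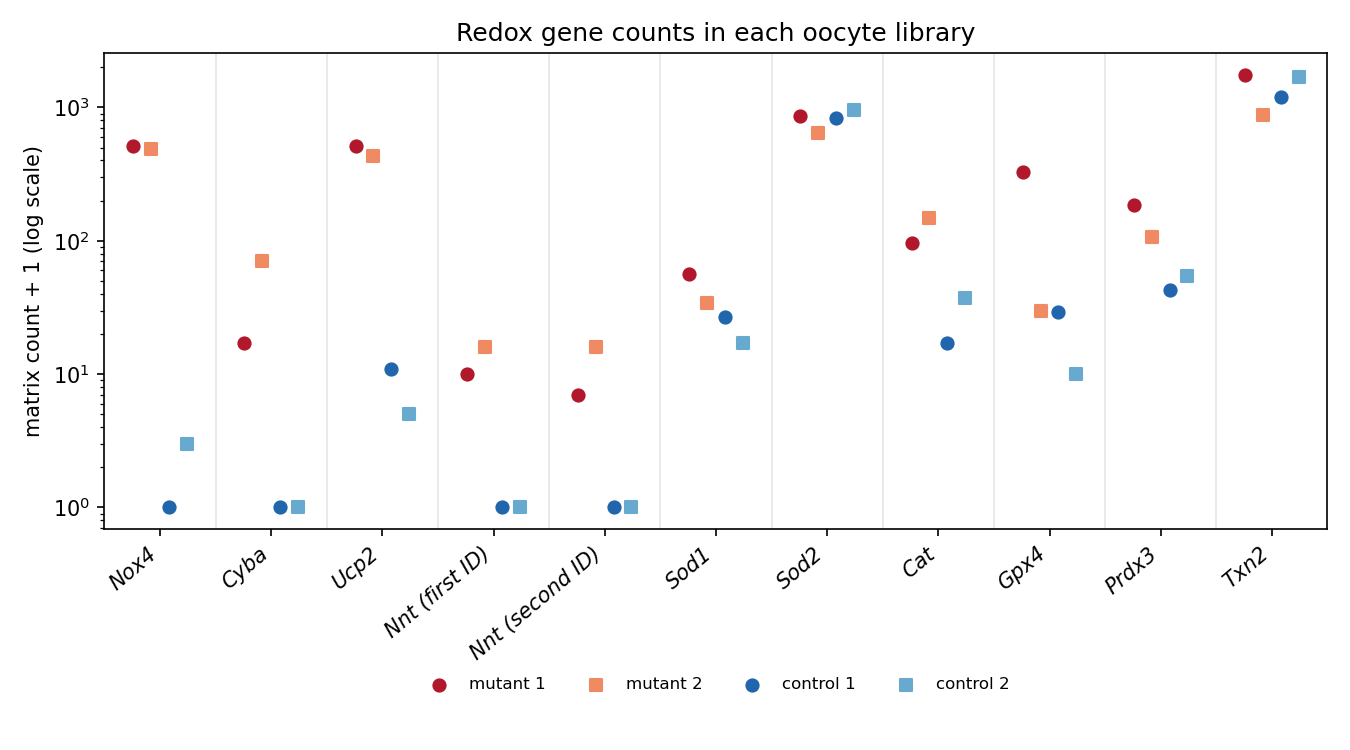
Matrix count plus 1 (log scale) of each gene ID in the 4 libraries, with mutant libraries in red and orange and control libraries in blue. *Nox4* (517 and 487 counts) and *Ucp2* (512 and 431 counts) were near equal in both mutants and at 10 counts or fewer in both controls, while *Gpx4* was high in mutant 1 alone (326 counts).

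The sequences before the RefSeq starts of *Nox4* and *Ucp2* are shown because these 2 genes were the members called between the groups. Each is the 250 bases before the RefSeq start in GRCm38.p6, on the plus strand of chromosome 7, with matched motifs in capitals. The GENCODE genes start at other positions. In GENCODE *Nox4* starts at 87246096, so its window lies inside that gene. *Ucp2* starts at 100493337, so its window runs past that start.
Nox4 chr7:87246399-87246648: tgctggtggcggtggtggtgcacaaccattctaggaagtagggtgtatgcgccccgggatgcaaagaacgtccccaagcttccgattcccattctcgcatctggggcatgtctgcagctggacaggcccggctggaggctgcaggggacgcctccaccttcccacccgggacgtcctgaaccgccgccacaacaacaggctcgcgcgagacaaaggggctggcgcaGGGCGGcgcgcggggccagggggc
Ucp2 chr7:100493108-100493357: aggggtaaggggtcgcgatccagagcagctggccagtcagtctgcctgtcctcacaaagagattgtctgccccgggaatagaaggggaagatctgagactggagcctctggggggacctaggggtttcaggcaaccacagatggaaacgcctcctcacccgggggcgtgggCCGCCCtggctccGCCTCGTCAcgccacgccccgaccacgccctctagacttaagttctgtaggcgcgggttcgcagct

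Both strands were searched for 6 motifs. These were the TATA box, searched as TATAAA, and the CCAAT box, searched by its name. The GC box was searched as GGGCGG and the core of the antioxidant response element as TGACNNNGC. The AP-1 site was searched as TGACTCA and the E box as CACGTG. *Nox4* held 1 GC box, 24 bases before the RefSeq start. *Ucp2* held 1 GC box on the minus strand, 79 bases before the RefSeq start. It also held 1 antioxidant response core on the minus strand, 66 bases before that start. Of 32851 windows of the same length, 32.7% held GGGCGG and 10.2% held TGACNNNGC, and neither of the 2 genes held TATAAA (12.4% of windows), CCAAT (33.8%), TGACTCA (4.46%) or CACGTG (6.02%). GC content was 67.2% in the *Nox4* window and 63.6% in the *Ucp2* window, with 20 and 16 CpG dinucleotides, against medians of 52.4% and 6 over all windows. A GC content above the median was shared by members that were not called. Their windows ran from 55.6% GC (*Prdx3*) to 66.4% (*Sod1*, with 26 CpG). Their CpG numbers varied more, with 9 in *Cat* and *Prdx3*, 6 in *Cyba* and 2 in a window of *Gpx4*. Every member with a window held GGGCGG in at least 1 window. The table held windows for 9 of the 10 symbols, and *Sod1* was the other member with TGACNNNGC, 1 match. These matches describe letters and not bound sites.

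*Nox4* encodes an NADPH oxidase that is active without a stimulus, releases mainly hydrogen peroxide and needs only the membrane partner encoded by *Cyba*. It lies on chromosome 7 (87246096 to 87398710, plus strand, mm10). It was read at 18.4 and 18.3 CPM in mutants 1 and 2 and at 0 and 0.0794 CPM in controls 1 and 2. The mutant libraries were near equal (mean 18.33 CPM, SD 0.0464 CPM, n = 2), and the controls held 2 counts in all. The ratio of pooled mutant to control counts, scaled for library size, was 458, with a 95% counting interval of 127 to 3791, which covers counting error only. The RSEM expected counts, which divide reads between genes, were 473 and 458 in mutants and 0 in both controls. The difference was thus present in both deposited sources.

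*Ucp2* encodes a carrier of the mitochondrial inner membrane that is known in mice for limiting mitochondrial oxidants and is abundant in immune cells. It lies 13.1 megabases beyond *Nox4* on the same chromosome (100493337 to 100502020, plus strand). It was read at 18.2 and 16.2 CPM in mutants 1 and 2 and at 0.403 and 0.159 CPM in controls 1 and 2. The group means were 17.2 ± 1.41 CPM in mutants and 0.281 ± 0.173 CPM in controls (SD, n = 2 each), a ratio of 61.2 and a fitted log2 fold change of 5.91 (SE 0.490). The RSEM expected counts were 496 and 398 in mutants and 10 and 4 in controls. Both *Nox4* and *Ucp2* were read at similar levels in mutant 1 and mutant 2, while *Ptprc* was at 0.107 and 43.2 CPM and *Gja1* at 99.3 and 7.96 CPM in these 2 libraries. Other leukocyte markers were, like *Ucp2*, higher in both mutants than in both controls, among them *Lyz2*, *Cd74*, *Trbc2* (5.26 and 3.53 CPM in mutants and 0.644 and 0 CPM in controls) and *Fcer1g* (0.888 and 0.488 CPM in mutants and 0 in both controls). The part of leukocyte RNA in the *Ucp2* and *Nox4* counts was not tested.

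None of the nearest genes with counts around *Nox4* and *Ucp2* was called. *Tyr*, the tyrosinase gene 26.1 kb to the right of *Nox4*, had 20 and 0 counts in mutants and 3 and 13 counts in controls (adjusted p = 0.965, edgeR quasi-likelihood test). *Folh1*, 470 kb to its left, had 0 and 14 counts in mutants and 18 and 14 counts in controls (adjusted p = 0.636, edgeR quasi-likelihood test). *Ucp3*, the paralog of *Ucp2* whose end lies 6.91 kb to the left of it, was at 0 counts in all 4 libraries, which for a group allows up to 0.0548 CPM in mutants and 0.0600 CPM in controls. The nearest genes with counts were *Gm10603*, 18.5 kb to the left, at 5.54 and 6.65 CPM in mutants and 6.36 and 5.24 CPM in controls, and *Coa4*, an assembly factor gene of cytochrome oxidase 35.1 kb to the right, at 3.27 and 1.09 CPM in mutants and 1.01 and 1.67 CPM in controls. Neither passed (adjusted p = 0.927 and 0.594, edgeR quasi-likelihood test). *Dnajb13*, which overlaps the end of *Ucp2* on the other strand, had 2 counts in each mutant and 0 in both controls. Between *Nox4* and *Ucp2* 61 genes were tested, with a median log2 fold change of 0.16, against 0.05 over all genes tested. Of the 61, *Prss23* and *Rab30* were called higher and none lower, against 1.77% and 1.98% of all genes tested. These 2, named after their values were seen, were at 18.1 and 3.08 CPM (*Prss23*, a protease gene) and at 6.36 and 6.31 CPM (*Rab30*, a small GTPase gene) in mutants, against 3 counts in all for *Prss23* and 0.846 and 0.794 CPM for *Rab30* in controls.

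The genes with the profile most like each of these were found by the Euclidean distance between mean-centred log2 CPM values (prior count 2) over the 4 libraries. Nearest to *Nox4* were the pseudogene *Rps2-ps10* (distance 1.05), *Pnpla3* (1.19), *Stk17b* (1.21), *Btla* (1.28) and *Zfp536* (1.32). *Pnpla3*, a lipid droplet protein gene, was at 62.5 and 73.0 CPM in mutants and 0.644 and 0.992 CPM in controls. Nearest to *Ucp2* were *Ephb2* (0.554), *Serpinb6b* (0.634), *Xist* (0.702), *Pknox2* (0.753) and *Prkce* (0.853). *Ephb2*, an ephrin receptor gene, was at 3.37 and 3.79 CPM in mutants and had 1 count in the controls. *Xist*, the long noncoding RNA behind X inactivation in female somatic cells, was at 2.98 and 4.39 CPM in mutants and also had 1 count in the controls. These distances rest on 4 libraries and rank genes that are high in both mutants and near 0 in both controls.

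*Nnt* was read at low levels in both mutants and in neither control. It lies on chromosome 13 (119335448 to 119408997, minus strand), and its second ID covers 119335528 to 119408952, within the first. In the matrix the first ID had 9 and 15 counts in mutants 1 and 2 and the second 6 and 15, with 0 counts for each ID in both controls. Summed, *Nnt* had 15 and 30 counts in mutants and 0 in both controls. The mean CPM of the mutants was at least 13.8-fold higher when the controls are set at a floor of 3 counts over the group. The RSEM expected counts for the first ID were 12 and 26 in mutants and 0 in both controls, while the second ID was at 0 in every library. The split between the 2 IDs thus depended on the counting, and their sum differed little between the sources.

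The C57BL/6J substrain carries a multi-exon deletion within *Nnt* that leaves no detectable protein, while C57BL/6N mice keep the intact gene. The mm10 reference is a C57BL/6J genome, so its gene models lack the deleted exons: in GENCODE M21 the longest models, *Nnt-202* and *Nnt-206*, have 17 exons and a coding length of 2505 bases, and *Nnt-201* has 15 exons and 2163 coding bases. Reads from the deleted exons of an intact allele would have no place in these counts. The counts therefore come from exons that both substrains keep and do not show which allele was transcribed. The labels say C57BL/6 without a substrain, so whether the mutant and control oocytes differed in the *Nnt* allele was not tested. *Fgf10*, the nearest gene with counts on one side, was at 21.9 and 31.2 CPM in mutants and 21.5 and 21 CPM in controls. *Paip1*, 19.6 kb away on the other side, was at 2025 and 2003 CPM in mutants and 2201 and 2096 CPM in controls, and neither passed the threshold (adjusted p = 0.473 and 0.772, edgeR quasi-likelihood test).

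*Cyba* encodes p22phox, the membrane subunit that *Nox4* and the phagocyte oxidase share (chromosome 8, 122424776 to 122432930, minus strand). It had 16 and 70 counts in mutants 1 and 2 and 0 in both controls. This is 0.568 and 2.63 CPM. The mean of the mutants, 1.60 CPM, was at least 26.7-fold higher than the floor of the controls. *Cyba* did not pass the threshold. Mutant 2 held more than mutant 1, as for 13 of the 18 leukocyte markers, while *Cd74*, *Lyz2*, *Trbc2*, *Fcer1g* and *Csf1r* were higher in mutant 1. Of the list, 18 of 18 were read in mutant 2 and 13 of 18 in mutant 1, against 9 and 6 of 18 in controls 1 and 2. The part of leukocyte RNA in the *Cyba* counts was not tested. *Nox4* was above *Cyba* in both mutants, at 8.42 and 8.13 TPM (the deposited unit of transcript abundance that allows for length) against 1.82 and 7.95 TPM.

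Of the 19 genes of the NADPH oxidase family list, 11 were tested. Of these 2 were called higher and none lower, against 1.77% and 1.98% of all genes tested. The 11 had a median log2 fold change of 1.05, against 0.05 for all genes tested. Without *Nox4* and *Cyba* 9 were tested, 1 was called higher, and the median was 0.57. Several subunit genes of the phagocyte oxidase, named after their values were seen, had most of their counts in mutant 2: *Ncf4* had 4 and 335 counts in mutants 1 and 2, *Rac2* had 0 and 619 and *Ncf1* had 0 and 10, with 0 in both controls for each. *Cybb*, the catalytic subunit of that oxidase, had 63 and 86 counts in mutants and 3 and 11 counts in controls (adjusted p = 0.066, edgeR quasi-likelihood test). *Duox1*, *Noxa1*, *Duoxa1* and *Duoxa2* were at 0 counts in every library. *Rac1*, the most abundant of the family, was at 128 and 158 CPM in mutants and 215 and 175 CPM in controls (adjusted p = 0.196, edgeR quasi-likelihood test).

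**Figure D2:**
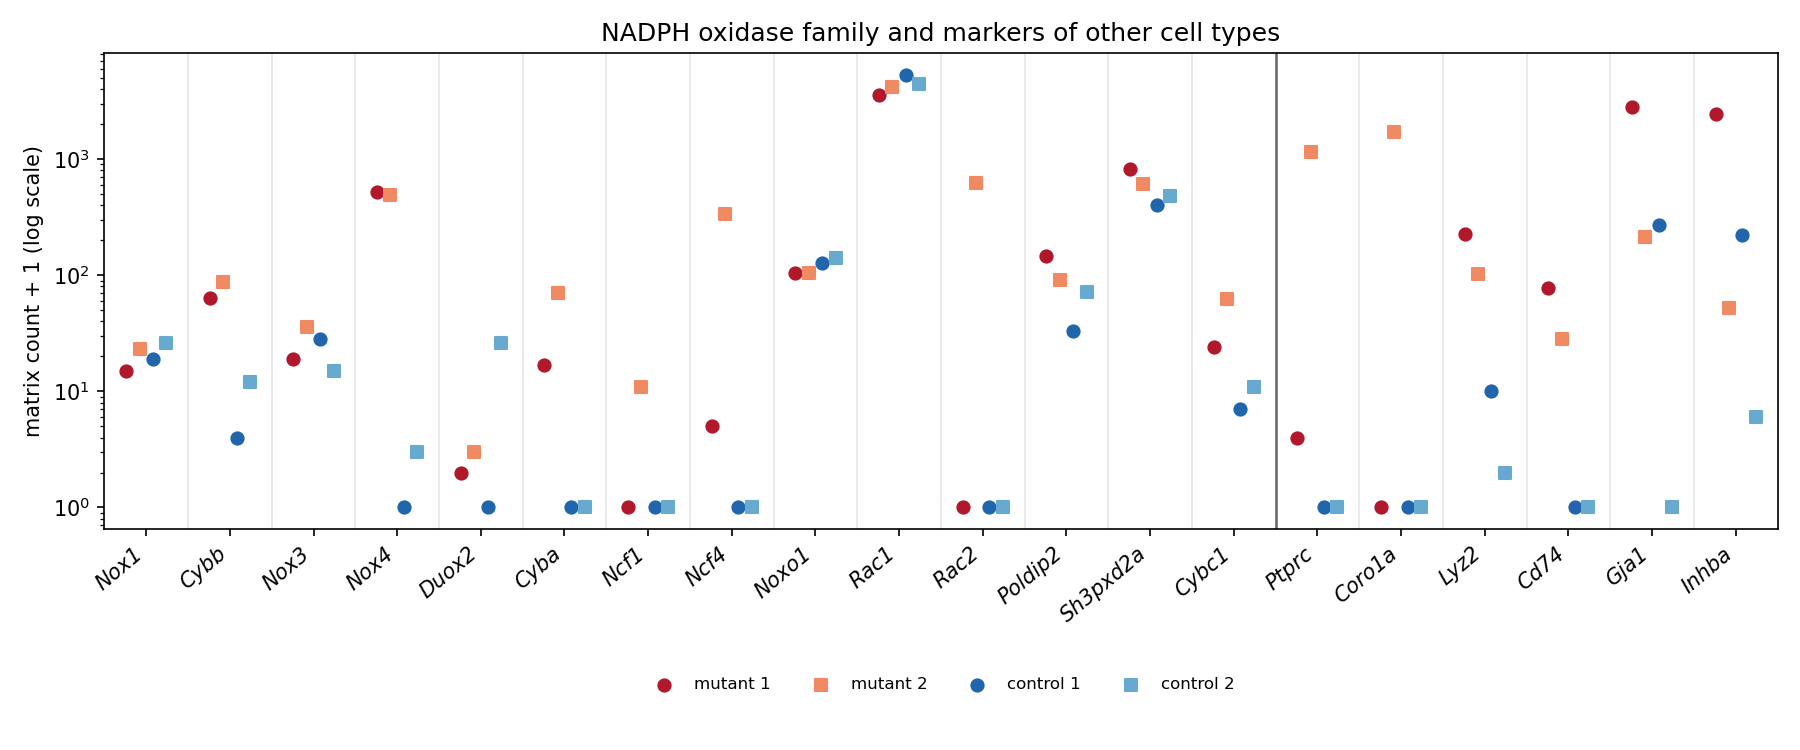
Matrix count plus 1 (log scale) of NADPH oxidase family genes with at least 1 count, 1 gene not drawn, and, right of the line, of 4 leukocyte markers (*Ptprc*, *Coro1a*, *Lyz2*, *Cd74*) and 2 cumulus markers (*Gja1*, *Inhba*), in mutant (red, orange) and control (blue) libraries. *Nox4* was level between the mutants, while *Ncf4*, *Rac2*, *Ptprc* and *Coro1a* were high in mutant 2, *Gja1* and *Inhba* in mutant 1, and *Lyz2* and *Cd74* in both mutants, at 226 and 102 and at 76 and 27 counts.

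Neither superoxide dismutase gene was called. *Sod1*, the cytosolic and intermembrane space enzyme (chromosome 16, 90220754 to 90226329, plus strand), was at 1.95 and 1.24 CPM in mutants and 1.05 and 0.635 CPM in controls. Its log2 fold change of 0.92 (SE 0.612) did not pass, and *Sod1* was low throughout, with 16 to 55 counts per library. Its RSEM expected counts were lower still, at 29 and 13 in mutants and 9 and 8 in controls. *Sod2*, the manganese enzyme of the matrix (chromosome 17, 13006846 to 13040063, plus strand), was the more abundant, at 30.8 and 24 CPM in mutants and 33.4 and 38.1 CPM in controls. Both mutants were below both controls, by a log2 fold change of -0.38 (SE 0.212) that did not pass.

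None of the peroxide-removing members passed the threshold. Catalase, the peroxisomal enzyme encoded by *Cat* (chromosome 2, 103453849 to 103485160, minus strand), was at 3.37 and 5.48 CPM in mutants and 0.644 and 1.43 CPM in controls (log2 fold change 2.09, SE 0.574). *Prdx3*, the peroxiredoxin of the matrix (chromosome 19, 60864051 to 60874556, minus strand), was at 6.50 and 3.94 CPM in mutants and 1.69 and 2.10 CPM in controls (log2 fold change 1.46, SE 0.448). The groups did not overlap for either gene. *Cat* was higher in mutant 2 and *Prdx3* in mutant 1.

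*Gpx4*, the selenoenzyme that reduces lipid hydroperoxides (chromosome 10, 80047166 to 80056439, plus strand), was at 11.6 and 1.09 CPM in mutants 1 and 2 and at 1.13 and 0.357 CPM in controls 1 and 2. Mutant 1 stood alone, and mutant 2 was at the level of control 1. The log2 fold change of 3.09 (SE 1.126) did not pass, and it was 0.53 without mutant 1 and 3.95 without mutant 2. Mutant 1 was also the library with the most cumulus marker RNA, in which 18 of 18 such markers were read, against 14 of 18 in mutant 2 and 14 and 9 of 18 in controls 1 and 2. The part of cumulus RNA in *Gpx4* was not tested. Adding the counts of the pseudogenes *Gpx4-ps1* and *Gpx4-ps2* gave 333 and 30 counts in mutants and 29 and 9 counts in controls.

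*Txn2*, the thioredoxin of the matrix that serves *Prdx3* (chromosome 15, 77915047 to 77929006, minus strand), had the highest CPM of the 10 genes in every library. It was at 62.5 and 32.8 CPM in mutants and 48.5 and 67.2 CPM in controls, so mutant 1 lay between the controls and mutant 2 below both. Its log2 fold change of -0.28 (SE 0.326) did not pass. It was 0.10 without mutant 2 and -0.83 without mutant 1, so its direction rested on mutant 2.

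Per transcript length the order of the genes differed between groups. In the deposited TPM values of the mutants *Txn2* came first at 77.5 ± 34.9, then *Ucp2* at 55.7 ± 0.976, *Sod2* at 46.4 ± 9.07, *Gpx4* at 15.9 ± 18.5, *Nox4* at 8.28 ± 0.205, *Prdx3* at 7.14 ± 2.80, *Cyba* at 4.88 ± 4.33, *Sod1* at 3.58 ± 2.29, *Cat* at 2.98 ± 1.05 and *Nnt* at 0.405 ± 0.219 (mean TPM ± SD, n = 2). The libraries of neighbours overlapped in this order except between *Ucp2* and *Sod2*, *Sod2* and *Gpx4*, and *Cat* and *Nnt*. In the controls the order was *Txn2* at 82.7 ± 23.4, *Sod2* at 55.5 ± 8.88, *Gpx4* at 13.9 ± 18.2, *Prdx3* at 2.29 ± 0.629, *Sod1* at 1.46 ± 0.0495, *Ucp2* at 0.825 ± 0.488 and *Cat* at 0.615 ± 0.361 TPM (SD, n = 2), with *Nox4*, *Cyba* and *Nnt* listed at 0. In this order the libraries of neighbours overlapped between *Gpx4* and *Prdx3* and between *Ucp2* and *Cat*. *Ucp2* thus stood in second place in mutants and in sixth place in controls, while *Txn2* stood first in both.

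These TPM values lean on the transcript lengths that RSEM assigned, which varied between libraries. *Gpx4* in control 1 was given 26.78 TPM from 24.5 expected counts, because its effective length there was 50.36 bases, while control 2 was given 0.98 TPM from 9 expected counts at 541.82 bases. In mutant 1 it had 29 TPM from 288.67 expected counts, so the TPM of mutant 1 and control 1 were alike and their read counts were not. *Ucp2* was assigned a mean transcript length of 842.95 and 752.6 bases in mutants and 1466.2 and 512.3 bases in controls, each below the 3988 bases of *Ucp2-202*, the annotated transcript with the longest coding length (927 bases). Its TPM in mutants is accordingly above that of *Nox4* although their CPM were alike. *Nox4* was assigned 3609.31 and 3749 bases in mutants, and 3749 is the length of an 18-exon transcript that GENCODE marks as a target of nonsense-mediated decay, while the coding *Nox4-201* has 3753 bases. *Nnt* was assigned 3134.39 and 3122 bases in mutants, and 3122 is the length of *Nnt-201*. No file gave values per transcript, so the shares of these forms could not be computed.

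**Figure D3:**
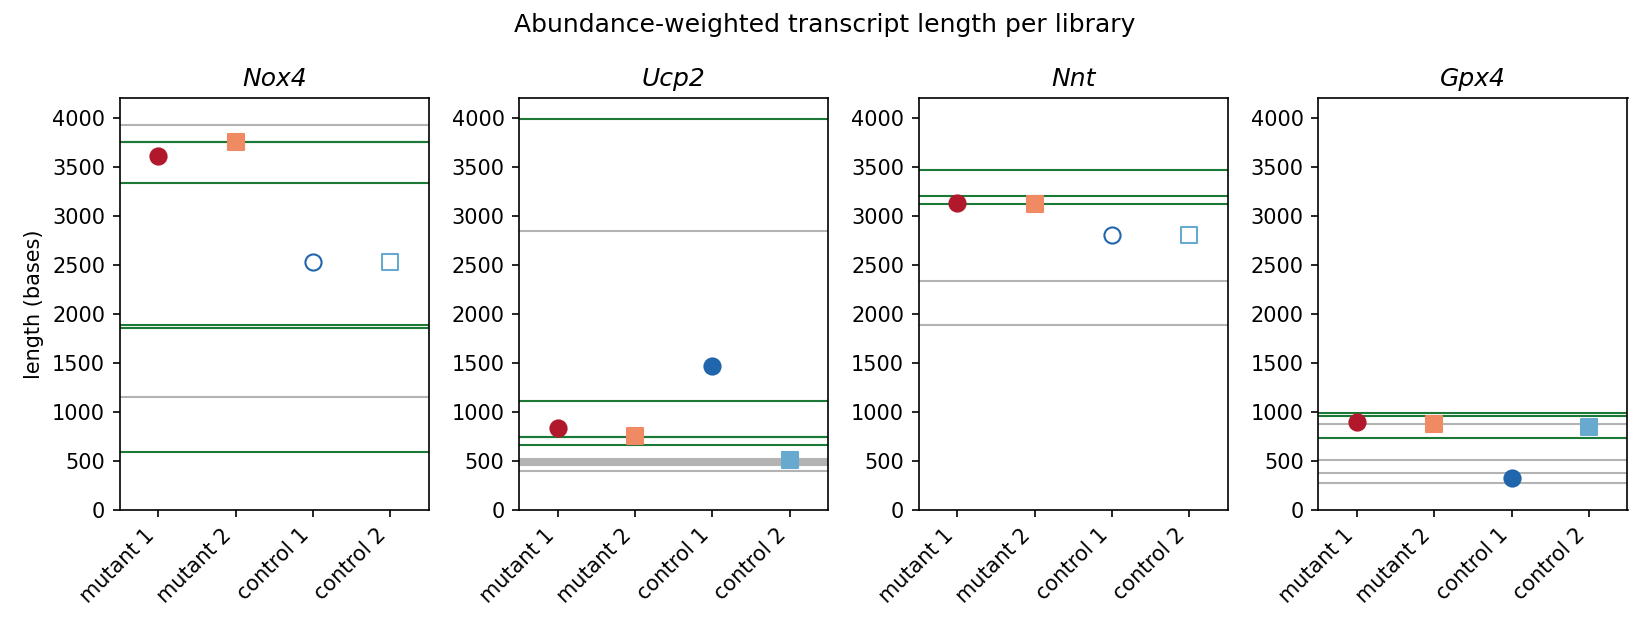
Abundance-weighted transcript length in bases that RSEM assigned to *Nox4*, *Ucp2*, *Nnt* (first ID) and *Gpx4* in mutant (red, orange) and control (blue) libraries. Horizontal lines are annotated transcripts, green where they have a coding sequence and grey where they do not, and open points have 0 reads and show the plain mean over transcripts, such as 2532 bases for *Nox4* in both controls.

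The wider redox pathway was described by 6 lists holding 94 gene IDs, of which 70 were tested. Over these, 4 were called higher and none lower, against 1.77% and 1.98% of all genes tested. Among the 4 were *Nox4* and *Ucp2*, which the same contrast chose. The median log2 fold change was 0.54, against 0.05 over all genes tested. Without the members 61 genes were tested, 2 were called higher, among them *Aldh4a1*, none lower, and the median was 0.43. *Aldh4a1*, from the list of mitochondrial NADPH supply, encodes the mitochondrial enzyme that completes the breakdown of proline and makes NADH. It rose to 7.10 ± 1.06 CPM in mutants, against 0.817 ± 0.416 CPM in controls (SD, n = 2 each), a log2 fold change of 3.11 with SE 0.509 (edgeR quasi-likelihood test, adjusted p = 0.0319). It did not pass without control 1 or control 2 (adjusted p = 0.284 and 0.212, edgeR quasi-likelihood test). Of that list 9 of 13 gene IDs were tested, 1 was called higher and none lower (median 0.36). Of its members *Me3*, the mitochondrial malic enzyme that makes NADPH, was at 1.67 and 0.451 CPM in mutants and 5.68 and 9.37 CPM in controls, and *Idh2*, the mitochondrial isocitrate dehydrogenase that does so too, had 9 and 4 counts in mutants and 0 in both controls. Both are named after their values were seen, *Me3* did not pass (adjusted p = 0.0701, edgeR quasi-likelihood test) and *Idh2* was not tested.

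Of 9 genes of uncoupling proteins and nucleotide carriers 6 were tested, and *Ucp2* alone was called (median 0.52, and 0.43 without it). *Ucp1* and *Ucp3* were at 0 counts in all libraries, so *Ucp2* was the one of these 3 paralogs that was read. *Slc25a31*, the germ cell form of the ADP/ATP carrier, was at 318 and 407 CPM in mutants and 319 and 221 CPM in controls, and *Slc25a14* was at 20.2 and 18.4 CPM in mutants and 24 and 23.6 CPM in controls (adjusted p = 0.308 and 0.425, edgeR quasi-likelihood test).

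Of 16 genes of superoxide and peroxide removal 12 were tested and none passed in either direction (median 0.87, and 0.63 over the 7 that are not members). The most abundant were the cytosolic peroxiredoxin genes. *Prdx1* was at 2574 and 2442 CPM in mutants and 3158 and 2922 CPM in controls, and *Prdx2* at 508 and 324 CPM in mutants and 808 and 842 CPM in controls (adjusted p = 0.354 and 0.0669, edgeR quasi-likelihood test). Of 18 genes of thiol relay and repair 14 were tested and none passed (median 0.24, and 0.27 without *Txn2*). *Txnip*, which binds and inhibits thioredoxin, was at 1182 and 1426 CPM in mutants and 1686 and 1477 CPM in controls, and *Glrx*, a glutaredoxin gene, at 459 and 468 CPM in mutants and 457 and 552 CPM in controls (adjusted p = 0.391 and 0.695, edgeR quasi-likelihood test). Of 19 redox regulators 18 were tested and none passed (median 0.44). The transcription factor genes *Foxo1* and *Nfe2l1* were at 139 and 116 CPM and at 79.0 and 82.4 CPM in mutants, against 117 and 93.4 CPM and 55.5 and 76.5 CPM in controls (adjusted p = 0.420 and 0.427, edgeR quasi-likelihood test).

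**Figure D4:**
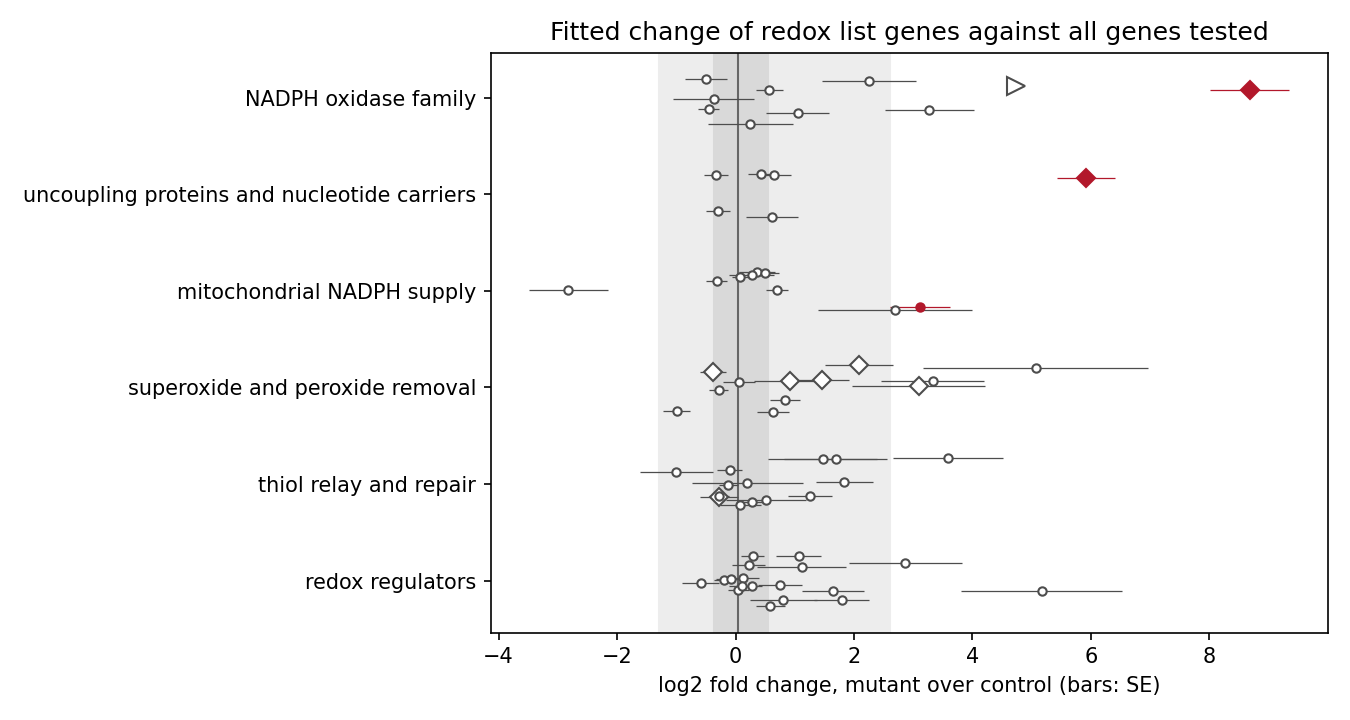
Log2 fold change (mutant over control, bars are SE) of genes tested in the 6 redox lists, with 1 gene not drawn, with diamonds for members, circles for other genes, red for genes called higher, and a triangle at the lower bound for *Cyba*, which was at 0 in both controls. Grey bands run from the 25th to the 75th and from the 5th to the 95th percentile of all genes tested. The wider one runs from -1.30 to 2.62. *Nox4* and *Ucp2* lie beyond it. So do genes that were not called, among them *Maf* (5.17), *Prdx4* (5.07) and *Gpx4* (3.09), with *Me3* (-2.82) below its lower edge.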

How the data were processed

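RNA of mouse oocytes was amplified with Smart-Seq2, per the labels' protocols, and the 4 libraries were grouped by genotype label into 2 mutant and 2 control libraries. The submitters' processing notes name cutadapt 1.16, STAR, RSEM and the build mm10. The sources used here name neither the counter behind the count matrix nor its use of strand. Overlapping genes and near-identical copies are therefore uncertain. The deposited matrix holds raw counts per gene, summing to between 25090032 and 26617816 per library. Per the file headers, the authors' tables per library hold RSEM expected counts, which divide reads between genes, with TPM and FPKM values and lengths. TPM was used to set genes side by side, and FPKM was not used.

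The matrix counts were fitted with edgeR 4.0.16 (filterByExpr, TMM, quasi-likelihood test, genotype as the only term), with Benjamini-Hochberg adjustment over 15493 genes and a threshold of 0.05. CPM divides each count by the TMM-scaled size of its library and scales it to the usual CPM base. The fit had a common biological coefficient of variation of 0.353 on 2 residual degrees of freedom. With genes at 0 in both controls, folds were computed from the mean CPM of the mutants against 3 counts over the group. Counting intervals cover counting error only. On simulated counts for this comparison (15691 genes, 50 changed per fold size) the fit called 16% of the genes changed 2-fold and 50% of those changed 4-fold. It called 72% of the genes changed 8-fold and 86% of those changed 16-fold. The simulated spread followed the fitted trend with expression, with none particular to a gene or library. These shares may therefore be too high for the real counts. Alternatives used DESeq2 1.42.0, limma 3.58.1, RSEM expected counts rounded to whole numbers, other filters and scalings, a replicate block and each library left out. Non-members of each redox list were named where they passed the threshold, and otherwise as the 2 most abundant. Of each marker list the 2 with the highest CPM in any library were named, with *Gja1* and *Ptprc*, and the nearest genes in position and profile for *Nox4*, *Ucp2* and *Nnt*. *Lyz2*, *Cd74*, *Trbc2*, *Fcer1g*, *Csf1r*, *Il2rb*, *Laptm5*, *Cyp19a1* and *Nr5a2* were named after their values were seen. One gene of the lists is counted in them but not reported here. The members, the lists and this rule were chosen with earlier results of these data known.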

Additional observations from a re-analysis of the deposited data

How the results depend on the processing

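With 2 libraries a group, the calls depended on the tool and on single libraries. Genes called higher over all genes tested numbered 274, against 978 by DESeq2, 180 with a mean CPM of at least 1, 749 with no filter on low counts and 730 with the replicate block. They ranged from 10 to 962 with a library left out. Genes called lower numbered 307, against 908 by DESeq2, 573 with no filter and 483 with the replicate block, and ranged from 12 to 726 with a library left out. Redox list genes called higher numbered 4, against 16 by DESeq2, 10 with no filter and 11 with the replicate block, with 0 to 11 when a library was left out. Redox list genes called lower numbered 0, against 2 by DESeq2, 2 with no filter and 2 with the replicate block, with 0 to 3 when a library was left out. Members called higher numbered 2, against 5 by DESeq2 and 5 with the replicate block, where *Cyba*, *Cat* and *Gpx4* passed too, with 0 to 4 when a library was left out. Members called lower numbered 0, with 0 to 1 when a library was left out, the 1 being *Txn2* without mutant 1 (log2 fold change -0.83), whose log2 fold change was 0.10 without mutant 2. The cause of these shifts was not tested. Same-numbered libraries had a correlation of deviations of 0.176 over 15493 genes, and with 2 numbers the labels do not show that they pair the libraries. Summing the counts of both *Nnt* IDs, and of *Gpx4* and its pseudogenes, was chosen after seeing the data and left the members called higher at 2. Where a library was left out, the lone library of its group was assumed to vary like the other group.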
